A study of Mus musculus with 12 samples.

Results

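*Spic*, *Slc40a1*, *Cd163*, *Vcam1*, *Itgad* and *Trf* are 6 genes associated with iron transport or with macrophages that recycle iron. They were chosen by name from the 479 genes of a table of thymus RNA, with earlier results of these data known. All 6 were found in it. The 12 samples are whole thymuses of mice at 1 month of age, 6 of WT mice and 6 of *Axl-/-Mertk-/-* mice (named AMDKO in the labels), which lack the receptor tyrosine kinases Axl and Mer in every cell. Each genotype has 3 males and 3 females, all on a C57BL/6 background, and the mutant and WT lines were kept in separate housing, so that genotype and housing cannot be told apart. The question was by how much each of these genes was lower in the mutant thymus, whether they fell by the same factor, and whether they went up and down together from mouse to mouse.

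Macrophages that engulf old erythrocytes digest their hemoglobin and return the iron to the blood. The red pulp macrophages of the spleen are the best known cells of this kind, and the ETS-family transcription factor Spi-C, the product of *Spic*, is needed for their development and is induced by heme. *Slc40a1* encodes ferroportin, which exports iron from cells, *Cd163* encodes the scavenger receptor for complexes of hemoglobin and haptoglobin, and *Trf* encodes transferrin, which carries iron in the blood. *Vcam1* encodes an adhesion molecule that binds integrins and *Itgad* encodes the integrin chain CD11d, and both mark red pulp macrophages. In the thymus, resident macrophages clear the many thymocytes that die during selection.

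Levels are given in FPKM, a read number divided by the length of the exons and by the reads mapped in the library, so that genes can be compared. The table holds log2(FPKM + 5), and FPKM were recovered by undoing the logarithm. Most genes of the table differ between these same mice, with their mean FPKM apart by more than 0.5 in log2 for 469 of the 479, and a test on it is not independent evidence of a change. Depth, estimated from the steps between low values, ranged from 18800000 to 24500000 reads in WT mice and from 19300000 to 23800000 in mutants. *Axl*, the mutated gene held by the table, ranged from 11.9 to 16.9 FPKM in WT mice and from 1.92 to 2.45 FPKM in mutants, so that the 12 libraries carried the *Axl* level of their labels. One mutant, male AMDKO_264, was well above the other mutants in *Spic*, *Slc40a1* and *Itgad*, but not in *Cd163*, *Vcam1* or *Trf*. Several results are given with and without it below.

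Of the 6 genes, *Vcam1* was the most abundant in WT thymus and *Cd163* the least, with means of 51.0 and 0.664 FPKM. All 6 had lower means in the mutant, at between 10.6% of the WT mean for *Itgad* and 69.5% for *Trf*. In 5 of them every mutant lay below every WT mouse, where 26.3% of the 479 genes showed this. The median share of WT was 53.0% over the 6 genes and 60.4% over the 313 genes of the table that were lower. Because the RNA came from all cells of the organ, fewer macrophages and less mRNA per macrophage cannot be told apart in these values. By flow cytometry the paper reports fewer highly phagocytic macrophages in the mutant thymus. Among those left it reports almost no CD163 protein and a modest reduction of VCAM1. Cell frequencies and surface proteins are other measures than RNA of the whole organ.

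**Figure D1:**
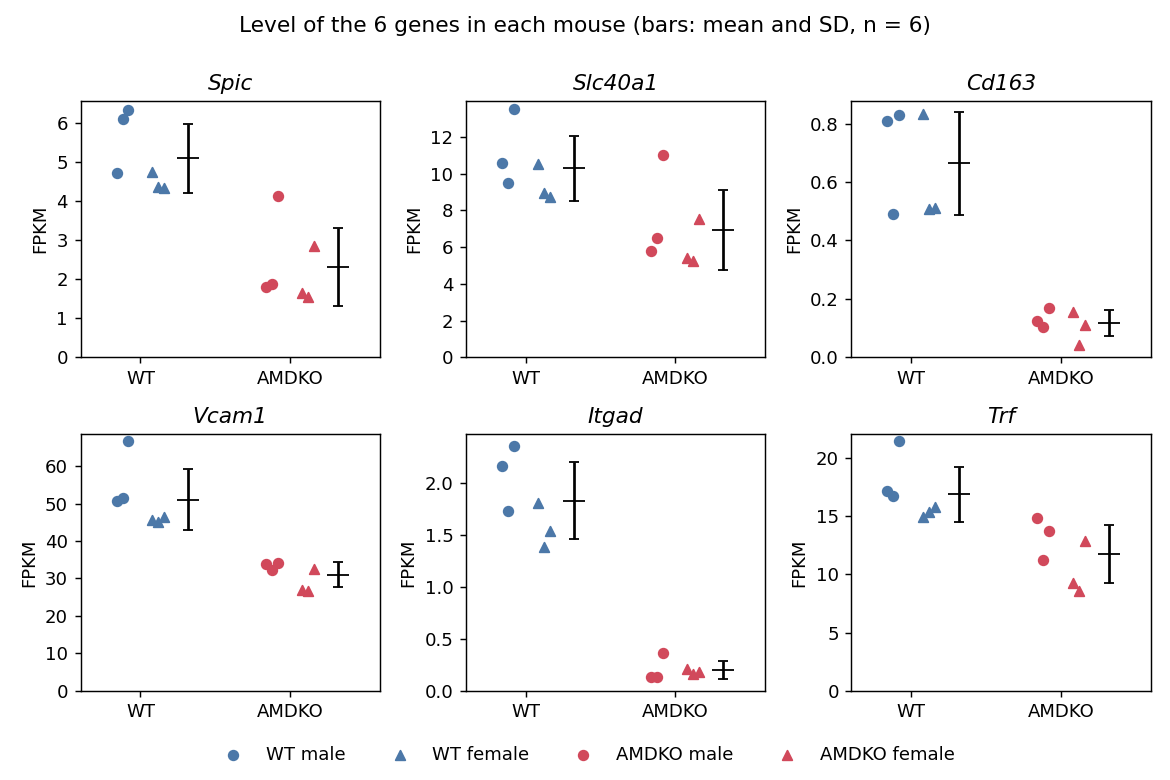
FPKM of the 6 genes (vertical axes, starting at 0) in the 6 WT and 6 AMDKO mice, with circles for males, triangles for females, and bars for the mean and SD of each genotype. The genotypes are apart for every gene but *Slc40a1*, whose highest mutant, male AMDKO_264, has 11.02 FPKM and lies within the WT values.

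*Spic*, the gene of the transcription factor, was examined first. It (chr10:88674772-88685015 of mm10, minus strand) lay between 4.34 and 6.33 FPKM in WT mice (median 4.74) and between 1.54 and 4.13 FPKM in mutants (median 1.84). The 2 highest mutants were male AMDKO_264 with 4.13 FPKM and female AMDKO_231 with 2.86 FPKM, while the other 4 had at most 1.89 FPKM, and only 0.21 FPKM separated the highest mutant from the lowest WT mouse. The means were 5.11 ± 0.883 FPKM (SD, n = 6) and 2.31 ± 1.007 FPKM (SD, n = 6), which is 45.3% of WT. In log2 FPKM with no constant the difference was -1.22 (SE 0.246). In limma on log2(FPKM + 5) with sex as a covariate it was -0.47 (SE 0.0789, adjusted p = 0.000781), and the constant of 5, about as large as the WT mean, makes the value on this scale smaller.

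The protein of *Spic* belongs to the ETS family, whose members bind DNA at a GGAA core, and the 250 bases before the start of *Spic* and of *Cd163* are shown because these are the members for which RefSeq promoters (GRCm38.p6) were at hand. Capitals mark GGAA or its complement TTCC. Both are printed 5′ to 3′ on the strand of the gene, *Spic* from chr10:88683024-88683273 (minus strand) and *Cd163* from chr6:124304401-124304650 (plus strand).
Spic: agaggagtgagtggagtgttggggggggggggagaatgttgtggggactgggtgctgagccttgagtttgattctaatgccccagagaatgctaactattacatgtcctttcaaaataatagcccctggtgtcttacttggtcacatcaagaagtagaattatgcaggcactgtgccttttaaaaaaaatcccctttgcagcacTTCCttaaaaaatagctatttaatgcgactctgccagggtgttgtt
Cd163: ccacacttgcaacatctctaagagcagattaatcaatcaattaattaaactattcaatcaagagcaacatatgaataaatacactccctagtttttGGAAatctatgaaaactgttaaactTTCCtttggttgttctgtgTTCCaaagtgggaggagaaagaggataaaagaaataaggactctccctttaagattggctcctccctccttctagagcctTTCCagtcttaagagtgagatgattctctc
The window of *Spic* holds 1 such core and that of *Cd163* holds 4, and 93.4% of the 32851 promoters in the collection hold at least 1 in their 250 upstream bases. The longer or more specific motifs GAGGAA (PU box, 23.3% of promoters), TGACNNNGC (core of the antioxidant response element, 10.2%), TATAAA (12.4%), CACGTG (E box, 6.02%) and GGGNTTTCC (kappa B, 1.46%), searched on both strands, are not in these 2 windows. The window of *Spic* lies inside the gene as GENCODE draws it, since a longer annotated transcript starts farther upstream.

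Of *Slc40a1*, *Cd163* and *Trf*, *Cd163* kept by far the smallest share of WT, on few reads, while *Slc40a1* and *Trf* kept similar shares. *Slc40a1* (chr1:45908068-45926523, minus strand), the iron exporter, ranged from 8.72 to 13.6 FPKM in WT mice (median 10.003) and from 5.24 to 11.02 FPKM in mutants (median 6.15). It was the only member whose genotypes overlapped, through mutant male AMDKO_264, while the other 5 mutants had at most 7.51 FPKM. The means were 10.3 ± 1.77 and 6.91 ± 2.18 FPKM (SD, n = 6 each), or 67.1% of WT. The difference was -0.61 in log2 FPKM (SE 0.190) and -0.37 in limma on log2(FPKM + 5) (SE 0.102, adjusted p = 0.00732), and with males alone it was -0.36 (adjusted p = 0.130, limma). Without AMDKO_264 it was -0.45 (adjusted p = 0.00135, limma).

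*Cd163* (chr6:124304656-124330527, plus strand), the hemoglobin scavenger receptor, was low throughout. It ranged from 0.489 to 0.833 FPKM in WT mice (median 0.661) and from 0.043 to 0.169 FPKM in mutants (median 0.118), without overlap. The means were 0.664 ± 0.176 and 0.118 ± 0.0442 FPKM (SD, n = 6 each), which is 17.7% of WT or a 5.64-fold difference. In log2 FPKM the difference was -2.57 (SE 0.329), against -0.15 on the log2(FPKM + 5) scale (SE 0.0192, adjusted p = 0.000215, limma). The mutant values rest on few reads, an estimated 4 to 16 per mouse and 69 over the 6 mutants (95% Poisson interval 53.7 to 87.3, counting error only), against 406 over the 6 WT mice (367 to 447).

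*Trf* (chr9:103204001-103230444, minus strand), the iron carrier, changed least in proportion. It ranged from 14.98 to 21.4 FPKM in WT mice (median 16.3) and from 8.60 to 14.9 FPKM in mutants (median 12.1). The groups did not overlap, but mutant male AMDKO_202 came within 0.113 FPKM of the lowest WT mouse. The means were 16.9 ± 2.37 and 11.8 ± 2.49 FPKM (SD, n = 6 each), or 69.5% of WT, a difference of -0.54 in log2 FPKM (SE 0.1504) and of -0.39 in limma on log2(FPKM + 5) (SE 0.0777, adjusted p = 0.00176). Of the 3320 exon bases of *Trf*, 63.5% also belong to exons of *Gm20425*, annotated on the same strand, so reads of these genes may not be separable. Exons of *Spic*, *Slc40a1* and *Cd163* are shared with no annotated gene, and those of *Vcam1* share 0.688% of their bases with an antisense gene.

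The adhesion genes gave the most abundant and the most strongly reduced member. *Vcam1* (chr3:116109949-116129688, minus strand) ranged from 44.96 to 66.6 FPKM in WT mice (median 48.6) and from 26.8 to 34.1 FPKM in mutants (median 32.3), with a gap of 10.9 FPKM between the groups. The means were 51.0 ± 8.13 and 31.0 ± 3.38 FPKM (SD, n = 6 each), or 60.8% of WT. Here the constant matters little, and the difference was -0.71 in log2 FPKM (SE 0.109) and -0.63 in limma on log2(FPKM + 5) (SE 0.0644, adjusted p = 4.60e-05). Endothelium also makes VCAM1, and 3 of 13 endothelial markers are in the table, *Tie1*, *Emcn* and *Egfl7*. Their summed level was higher in mutants, at 7.14 to 9.88 FPKM, than in WT mice, at 3.50 to 6.73 FPKM. Most of this sum is *Egfl7*, whose genotypes did not overlap, while *Tie1* and *Emcn* overlapped between genotypes. *Pecam1* and *Cdh5*, which define the cell type, were not among the genes analysed here. The part of endothelium in the fall of *Vcam1* was not tested.

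*Itgad* (chr7:128154376-128223816, plus strand) ranged from 1.39 to 2.36 FPKM in WT mice (median 1.77) and from 0.129 to 0.360 FPKM in mutants (median 0.171). The highest mutant, male AMDKO_264, was 1.03 FPKM below the lowest WT mouse. The means were 1.83 ± 0.370 and 0.195 ± 0.0863 FPKM (SD, n = 6 each), which is 10.6% of WT, and 2 of the 479 genes, *Itgad* included, had a share this low. The difference was -3.30 in log2 FPKM (SE 0.254), a 9.40-fold lower mean, and -0.39 in limma on log2(FPKM + 5) (SE 0.0282, adjusted p = 3.73e-06). An estimated 10 to 30 reads per mutant, 100 in all, stand behind these values, against 1003 in WT. Exons of 4 other annotated genes, 3 of them on the opposite strand, share 19.7% of its 4510 exon bases, and whether reads were counted by strand is not given in the sources used here. *Itgad* is the only member on the chromosome of a mutated gene, at 102 Mb from *Axl*.

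With both thresholds, an adjusted p under 0.05 and a log2 difference beyond 0.5, limma on log2(FPKM + 5) called 1 of the 6 genes lower, *Vcam1*, against 3.13% of the 479 genes. By adjusted p alone it called 6 of 6, against 61.8% of the table. With a constant of 0.1, both thresholds called 6 of 6, against 50.9%. The paper names 5 of the 6, all but *Trf*, as lower in these same mice. These counts are thus no independent support for a fall. With the constant of 5, *Cd163* and *Itgad* could not pass a log2 difference of 0.5 from WT means below 2 FPKM even if they fell to 0. Without mutant AMDKO_264 or without mutant AMDKO_231 *Spic* passed as well, at -0.53 and -0.51, and the count was 2. The exact two-sided permutation test of 6 against 6 gave its smallest possible p of 0.00216 for 5 genes (0.00554 adjusted over the 479 genes) and 0.0173 for *Slc40a1* (0.0205 adjusted).

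The genes did not fall by the same factor. Within each mutant mouse *Itgad* and *Cd163* kept the lowest shares of their WT means, in 6 of 6 mice, and *Itgad* was below *Cd163* in 5 of 6. *Spic* came next in 5 of 6 mice. The exception was male AMDKO_264, in which *Spic* stood at 80.8%, *Slc40a1* at 107% and *Itgad* at 19.7% of the WT mean. From the lowest to the highest gene the shares differed by between 4.82-fold (female AMDKO_219) and 12.5-fold (male AMDKO_202).

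**Figure D2:**
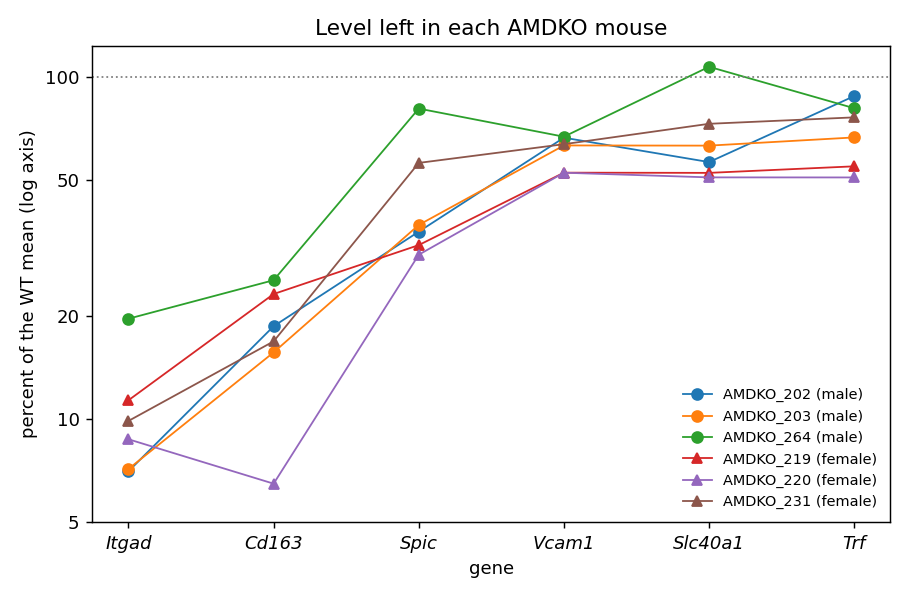
Level of each gene in the 6 AMDKO mice as a percent of the WT mean (vertical log axis), 1 line per mouse and genes in the order of their mean share. Every line runs from *Itgad* or *Cd163* at the bottom to *Vcam1*, *Slc40a1* or *Trf* at the top, and the line of male AMDKO_264 crosses 100% at *Slc40a1*.

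Whether 2 genes fell unequally was tested on the ratio of their FPKM within a mouse, which cancels what affects both genes alike. Of the 15 pairs, 13 had an adjusted p under 0.05 in exact permutation tests (Benjamini-Hochberg over the 15), and the ratios of 8 pairs did not overlap between genotypes. Most of the called pairs hold *Itgad* or *Cd163*, whose mutant values rest on few reads. How many pairs of other genes in the table would be called was not computed, here or for the comparison with *C1qa* below. The counts are thus not shown to be particular to these genes. *Itgad* fell more than every other member, by a log2 ratio of -2.76 (SE 0.258) against *Trf*, -2.69 (SE 0.156) against *Slc40a1*, -2.59 (SE 0.239) against *Vcam1* and -2.08 (SE 0.184) against *Spic*, each with an adjusted exact p of 0.00406. *Cd163* followed, at -2.03 (SE 0.279) against *Trf*, -1.96 (SE 0.265) against *Slc40a1* and -1.86 (SE 0.299) against *Vcam1* (adjusted exact p = 0.00406 for each), and -1.35 (SE 0.308) against *Spic* (adjusted exact p = 0.00722). These pairs kept their calls when any 1 mouse was left out. A constant of 1 or 5 added to FPKM is larger than every *Cd163* value. With 1, the calls of *Cd163* with *Slc40a1* (adjusted exact p = 0.870), with *Trf* (0.722), with *Spic* (0.130) and with *Vcam1* (0.303) ended, the latter 2 with a turned direction, and so did that of *Itgad* with *Spic* (0.114), while *Itgad* kept its calls with *Slc40a1*, *Vcam1* and *Trf*. With 5, the ratios of *Cd163* to *Spic*, *Slc40a1*, *Vcam1* and *Trf* and those of *Itgad* to *Spic*, *Vcam1* and *Trf* turned round.

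*Spic* fell more than *Slc40a1*, the member it followed most closely among mutant mice. The ratio of *Spic* to *Slc40a1* was between 0.446 and 0.643 in WT and between 0.291 and 0.381 in mutant mice, without overlap. On the log2 scale it fell by 0.61 (SE 0.107, adjusted exact p = 0.00406), and by between 0.54 and 0.66 when any 1 mouse was left out. *Spic* also fell more than *Trf*, by 0.68 (SE 0.190, adjusted exact p = 0.0162), with 5 of 6 mutants below every WT ratio and male AMDKO_264 within the WT ratios. Against *Vcam1* it fell by 0.51 (SE 0.197, adjusted exact p = 0.0425), and this call was lost in permutations within sex (adjusted p = 0.0577) and in 10 of the 12 fits without 1 mouse.

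The remaining pairs were closer. The ratio of *Vcam1* to *Trf* was tightly held in WT, between 2.93 and 3.11, and between 2.28 and 3.11 in mutants, a log2 difference of -0.17 (SE 0.0701, adjusted exact p = 0.0425). *Itgad* fell more than *Cd163* by 0.73 on the log2 scale (SE 0.286, adjusted exact p = 0.0425), with female AMDKO_220 as the exception. Permuting within sex ended both calls (adjusted p = 0.0577 for each), and leaving out 1 mouse ended that of *Vcam1* and *Trf* in 9 and that of *Itgad* and *Cd163* in 11 of 12 fits. *Vcam1* and *Slc40a1* differed by -0.10 (SE 0.138, adjusted exact p = 0.603) and *Slc40a1* and *Trf* by -0.068 (SE 0.145, adjusted exact p = 0.675), so that no unequal fall was detectable with 6 mice per genotype. In the order of their shares, *Itgad*, *Cd163*, *Spic* and *Vcam1* thus each differed from the next, though by calls that single mice could end for the first and last of these steps, while no unequal fall was detectable between *Vcam1* and its neighbor *Slc40a1* or between *Slc40a1* and its neighbor *Trf*.

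*C1qa*, which encodes a chain of complement C1q and is made by most tissue macrophages, served as a macrophage reference. It ranged from 71.4 to 117 FPKM in WT mice and from 43.3 to 78.7 FPKM in mutants, at 70.7% of WT. Among the 6 core macrophage markers in the table it kept the largest share of WT. *Tlr4* stood at 68.2%, *Mrc1* at 52.8%, *Siglec1* at 45.1% and *Timd4* at 43.7%, where *Spic* stood at 45.3%. The members were not tested against these other markers. A larger fall than that of *C1qa* is therefore not a larger fall than that of macrophage markers in general. *Itgad* and *Cd163* fell more than *C1qa*, by log2 ratios of -2.79 (SE 0.306) and -2.06 (SE 0.316), each with an adjusted exact p of 0.00649 over the 6 tests. With FPKM + 1 the ratio was -0.73 for *Itgad* (adjusted exact p = 0.0130) but -0.062 for *Cd163* (adjusted exact p = 0.974), and with FPKM + 5 it turned to 0.084 and 0.33 (adjusted exact p = 0.709 and 0.266). *Spic* also fell more, at -0.71 (SE 0.232, adjusted exact p = 0.0260), a call lost when mouse WT_211 or WT_213 was left out (adjusted p = 0.0649 and 0.0606) and with FPKM + 1 (adjusted p = 0.113). *Vcam1* differed from *C1qa* by -0.20 (SE 0.0912, adjusted exact p = 0.0779), *Slc40a1* by -0.097 (SE 0.186, adjusted exact p = 0.710) and *Trf* by -0.028 (SE 0.0734, adjusted exact p = 0.710). For *Vcam1* the call depended on single mice, with an adjusted p of 0.0292 without mutant AMDKO_219 and 0.0325 without mutant AMDKO_220.

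**Figure D3:**
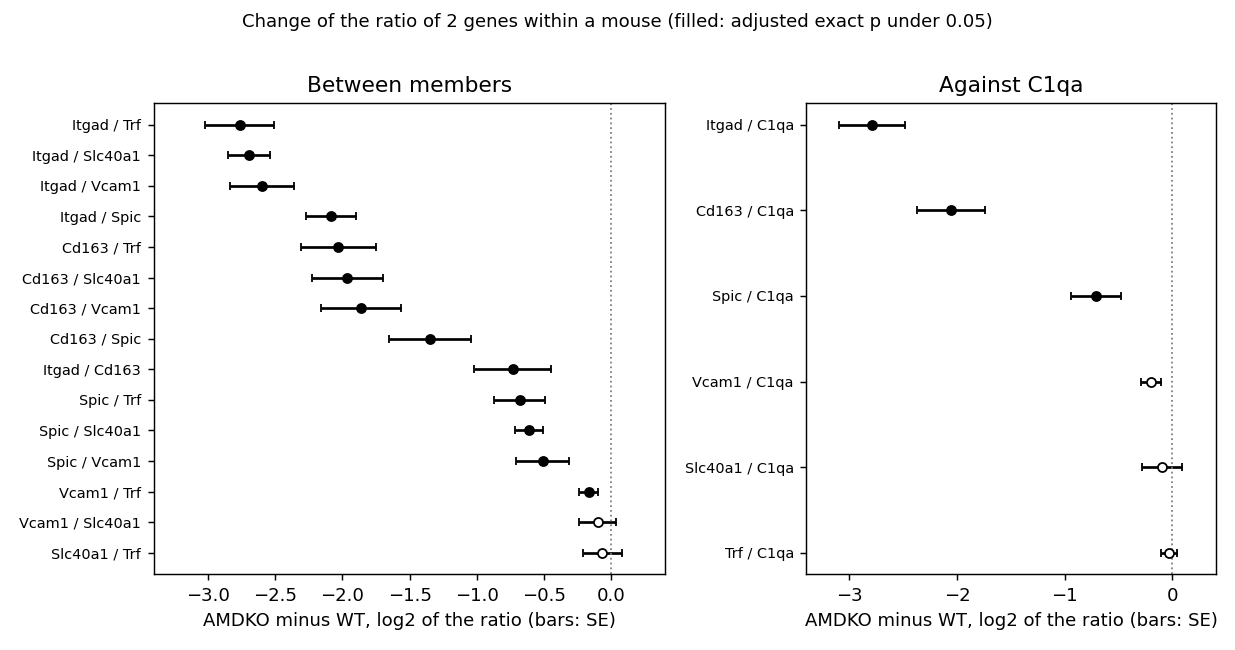
Difference between AMDKO and WT mice in the log2 ratio of 2 genes (horizontal axes), for the 15 pairs of members and for each member against *C1qa*, with bars for the SE and filled points for an adjusted exact p under 0.05. Ratios with *Itgad* or *Cd163* lie farthest below 0, and the open points, near 0, are *Slc40a1* with *Vcam1* and with *Trf*, and *Vcam1*, *Slc40a1* and *Trf* against *C1qa*.

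Mice of one genotype were then compared gene by gene. All 15 pairs of members had a positive correlation of log2 FPKM in WT mice and all 15 in mutants, with a median Pearson r of 0.800 (0.189 to 0.990) and 0.595 (0.101 to 0.982). Without the 2 mice farthest from the median of the first gene, 15 of 15 stayed positive in WT but 10 of 15 in mutants, where r of *Spic* with *Itgad* was then -0.67, of *Slc40a1* with *Itgad* -0.69 and of *Cd163* with *Vcam1* -0.80. As a measure of how much mice differ in general, the median r was 0.253 in WT and 0.113 in mutants over all pairs of genes of the table with a mean of at least 1 FPKM, and 0.522 and 0.212 over the 128 of these that were lower in mutants. With 6 mice per genotype few single pairs could be told from 0, and 1 of the 30 correlations had an adjusted p under 0.05. Each genotype pools males and females, and with values centred on each sex the median r was 0.539 in WT and 0.509 in mutants. Whether the correlations differ between genotypes was not tested.

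That pair was *Spic* and *Slc40a1* in mutants, whose 6 mice fell in the same order for both genes (Pearson r = 0.982, exact permutation p = 0.00139, 0.0417 adjusted over 30 correlations; Spearman rho = 1.00, exact p = 0.00278, 0.0833 adjusted). Without mice AMDKO_264 and AMDKO_231, the 2 farthest from the median of *Spic*, r was 0.948, and leaving out any 1 mutant gave between 0.956 and 0.994. In WT mice r was 0.664 (exact permutation p = 0.163, 0.287 adjusted; rho = 0.771, exact p = 0.103, 0.350 adjusted), and it was 0.230 without mouse WT_212 and 0.968 without mouse WT_211. Mouse WT_211 had the highest ratio of *Spic* to *Slc40a1*, 0.643, where the other 5 WT mice lay between 0.446 and 0.497.

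*Vcam1* and *Trf* were close in both genotypes. Their r was 0.990 in WT (exact permutation p = 0.00694, 0.0625 adjusted; rho = 0.886, exact p = 0.0333, 0.250 adjusted) and 0.957 in mutants (exact permutation p = 0.00417, 0.0625 adjusted; rho = 0.943, exact p = 0.0167, 0.167 adjusted). Without the 2 mice farthest from the median of *Vcam1*, r was 0.935 in WT and 0.855 in mutants. In WT mice *Slc40a1* and *Itgad* had an r of 0.901 (exact permutation p = 0.00833, 0.0625 adjusted; rho = 0.943, exact p = 0.0167, 0.167 adjusted), and *Spic* had a higher r with *Vcam1*, 0.829, than with *Slc40a1*. In mutants, *Itgad* showed little relation to *Vcam1* (r = 0.101, exact permutation p = 0.863, 0.867 adjusted; rho = 0.143, exact p = 0.803, 0.860 adjusted) or *Trf* (r = 0.110, exact permutation p = 0.867, 0.867 adjusted; rho = -0.143, exact p = 0.803, 0.860 adjusted), where 10 to 30 reads per mouse limit its precision. Without the 2 mice farthest from the median, r of *Vcam1* with *Itgad* was 0.510 and that of *Itgad* with *Trf* was -0.176. In WT mice the r of *Itgad* was 0.801 with *Vcam1* (exact permutation p = 0.0417, 0.155 adjusted) and 0.786 with *Trf* (exact permutation p = 0.0444, 0.155 adjusted).

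**Figure D4:**
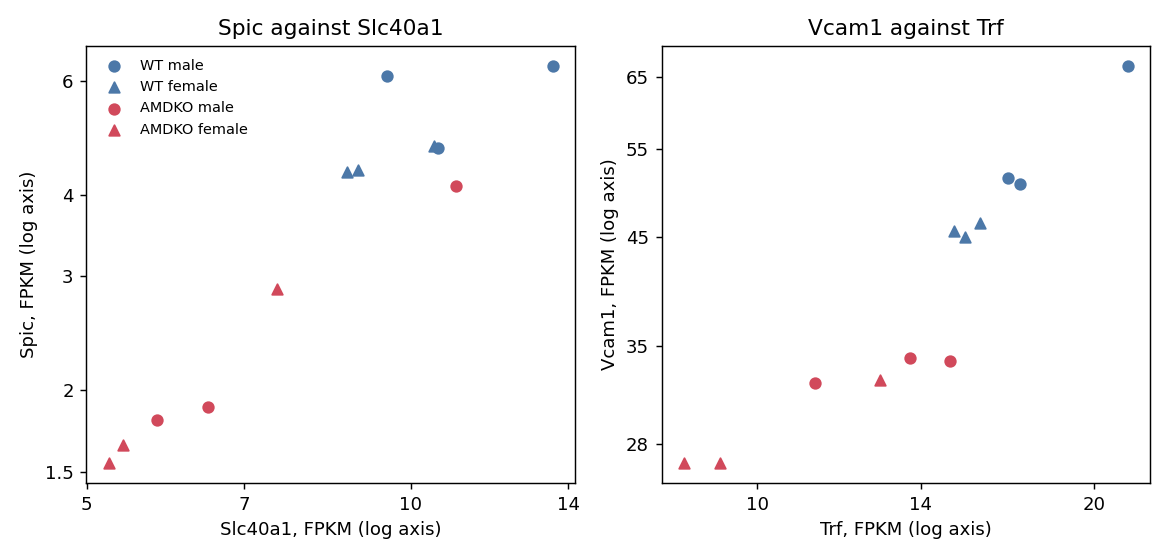
FPKM of *Spic* against *Slc40a1* and of *Vcam1* against *Trf* (log axes) in each of the 12 mice, colored by genotype, with circles for males and triangles for females. The 6 mutants rise in the same order for *Spic* and *Slc40a1* and male AMDKO_264, whose *Slc40a1* level is among those of WT mice, lies below them in *Spic*, and both genotypes lie close to a line for *Vcam1* and *Trf*.

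Some mice stood at the end of the series for most of the genes. Male WT_212 was the highest WT mouse for 5 of the 6 genes, and it was also above its group mean in 77.6% of the genes with a mean of at least 1 FPKM. Mutant male AMDKO_264 was the highest mutant for 5 of the 6, all but *Trf*, and its median deviation from the mutant mean was 0.68 in log2 over the 6 genes but 0.052 over the 128 lower genes. Female AMDKO_220 was the lowest mutant for 5 of the 6, all but *Itgad*. The lowest WT mouse was not the same throughout, with WT_214 and WT_215 lowest for 2 genes each and WT_211 and WT_213 for 1 each. Without mouse WT_212 the median r in WT was 0.487, and without mouse AMDKO_264 that in mutants was 0.384, so that the strength of the correlations rested in part on these mice.

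The spread between mice is given as the coefficient of variation. The coefficient of variation over WT mice was between 14.01% for *Trf* and 26.5% for *Cd163*. In mutants it was 43.6% for *Spic*, 31.5% for *Slc40a1* and 44.3% for *Itgad*, but 10.9% for *Vcam1*. Much of this rested on male AMDKO_264, without which it was 27.1% for *Spic*, 15.3% for *Slc40a1*, 20.8% for *Itgad* and 11.1% for *Vcam1*. Counting error alone would give 29.7% for *Cd163* in mutants, where 37.6% was seen, and 24.4% for *Itgad*, or 26.7% for *Itgad* without AMDKO_264, which is above the spread then seen, whereas it would give 2.08% for *Vcam1* and 10.6% for *Spic*. The differences in spread were not tested.

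Males had the higher mean in 12 of 12 comparisons of the sexes, 6 genes in each of 2 genotypes. In limma on log2(FPKM + 5), the male coefficient was 0.23 for *Vcam1* (SE 0.0644, adjusted p = 0.195) and 0.23 for *Trf* (SE 0.0777, adjusted p = 0.256), and no member passed after adjustment over the 479 genes. Without adjustment these 2 members had a p under 0.05 (0.00489 and 0.0132, limma). The whole table leaned the same way, since 76.2% of its genes had a positive male coefficient, and 0 of the 479 genes passed after adjustment against 69 without it. The mutant mean of *Spic* stood at 45.5% of WT in males and at 44.9% in females, and that of *Slc40a1* at 69.3% and 64.5%. No interaction of sex and genotype was detectable for any member, with adjusted p of at least 0.962 in limma and 0 of 6 members under 0.05 before adjustment, *Itgad* having the smallest p (0.0702). Without WT_211, WT_213 or AMDKO_264, *Itgad* had an unadjusted p of 0.00943, 0.0313 or 0.0416, and with any 1 mouse left out the smallest adjusted p of a member was 0.588.

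For each gene up to 3 genes of the table that followed it most closely over the 12 mice, after subtraction of the genotype means, were listed as a description. Values of 1 mouse share a library, so that they are not independent between genes. *Spic* was followed by *Il18* (r = 0.955), which encodes the cytokine interleukin 18, by *Car2* (r = 0.926), which encodes carbonic anhydrase 2, and by *Slc40a1* (r = 0.912). *Slc40a1* was followed by *Apoc1* (r = 0.913), the gene of an apolipoprotein, by *Spic* and by *Il18* (r = 0.896). The levels of these genes were also lower in mutants, *Il18* at 47.2%, *Car2* at 63.8% and *Apoc1* at 43.1% of WT. *Vcam1* was followed by *Amigo2* (r = 0.919), *C1qa* (r = 0.906) and *Trf* (r = 0.903), and *Trf* by *C1qa* (r = 0.913) and *Vcam1*. *Itgad* was closest to *Slc40a1* (r = 0.810), *Akr1c13* (r = 0.800) and *Sema6d* (r = 0.796). *Cd163* had no close companion, with *Ackr4* (r = 0.676), *Itgad* (r = 0.654) and *Ptgs1* (r = 0.631). Of these genes *Ackr4* and *Akr1c13* had higher means in mutants, at 204% and 194% of WT, although within a genotype they went up and down with a member that was lower.

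Genes around the 6 members were counted from lists. Of 40 genes of heme and iron handling, the table holds 4, all of them members (*Trf*, *Slc40a1*, *Spic* and *Cd163*), and the levels of the others, among them *Hmox1*, *Fth1* and *Tfrc*, were not analysed here. Of 12 red pulp macrophage genes named by the study, which picked most of them on these mice, 10 are in the table and 10 of 10 were lower with an adjusted p under 0.05 in limma (61.8% of the table), 5 members and *Sema6d* (70.8% of WT), *Kcnj10* (62.9%), *Gfra2* (54.5%), *Slc16a9* (49.8%) and *Tgm1* (47.5%). The summed level of these 5 other genes was 6.62 to 8.65 FPKM in WT mice and 3.62 to 4.69 FPKM in mutants. *Sema6d*, which encodes a semaphorin, and *Kcnj10*, which encodes a potassium channel, kept larger shares than *Itgad* or *Cd163*.

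Markers of the cells that could carry these transcripts were also examined. Of 21 core macrophage markers 6 are in the table, *C1qa*, *Axl*, *Mrc1*, *Timd4*, *Tlr4* and *Siglec1*, and 6 of 6 were lower (adjusted p under 0.05, limma, as were 61.8% of the table), with a summed level of 92.0 to 146 FPKM in WT mice and 49.6 to 85.9 FPKM in mutants. Most of this sum is *C1qa*, and *Axl* is a mutated gene. The sum of the other 4 was 8.50 to 11.7 FPKM in WT mice and 3.94 to 6.59 FPKM in mutants. Of 15 erythroid markers *Ermap* and *Car2* are in the table, both lower (as were 65.3% of the table), with a sum of 3.53 to 5.45 FPKM in WT mice and 1.95 to 4.11 FPKM in mutants. Both genes overlapped between genotypes. Of 12 dendritic cell markers *Ccl22*, *Ccl17* and *Cd209a* are in it, all lower (65.3% of the table), with a sum of 31.0 to 60.5 FPKM in WT mice and 21.1 to 30.9 FPKM in mutants. Most of this sum is *Ccl22*, which encodes a chemokine, and *Ccl17* and *Cd209a* overlapped between genotypes. Other listed markers of these cells, among them *Itgax*, *Flt3* and *Zbtb46*, were not among the genes analysed here. By flow cytometry the paper reports no significant difference between genotypes in the frequency of thymic dendritic cell subsets, which is not a measure of their mRNA. None of the markers listed for thymic epithelium (12), monocytes and neutrophils (14), B cells and plasma cells (9) or thymocytes (10) is in the table. The part of these cells in the fall of the 6 genes was not tested.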

How the data were processed

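Total RNA of 12 thymuses was sequenced, 1 library per mouse, and genotype, sex and mouse number were taken from the sample labels. The label of male WT_210 alone ends in _b, which is not explained in the sources used here, and it was kept as 1 mouse. Per the submitters' processing notes and the methods of the study, the authors called bases with CASAVA 1.8.2, mapped single reads to mm10 with STAR 2.5.3a, and normalized reads over exons of the top isoform to FPKM with HOMER 4.10.4. The deposited table holds log2 values, log2(FPKM + 5), of 479 genes, and the rule that selected them is not given in the sources used here. The authors tested raw counts with DESeq2 and sex as a confounder, and since counts were not used here, limma 3.58.1 (R 4.3.3) with a sex term was fitted to all 479 rows of these log2 values, and p-values were adjusted after Benjamini and Hochberg.

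Ratios and correlations used log2 FPKM with no constant, since no value of the 6 genes is 0, and exact permutation tests, two-sided, that ran through every one of the 924 arrangements of mice or 720 pairings, in Python 3.11.15 with numpy 2.4.6, scipy 1.17.1 and pandas 2.3.3; figures were drawn with matplotlib 3.10.9. Depth and reads per gene were estimated from the steps of FPKM values and transcript lengths of GENCODE vM21. Refits to separate sets of genes differed by at most 0.07%. They started from 1 common fit and searched only close to it, so their closeness is no independent check. Estimated reads of a member lay within 0.15 of a whole number in 3 (*Slc40a1*) to 8 (*Itgad*) of 12 mice, so reads per mouse are approximate. For *Slc40a1* and *Spic* (4 of 12) this is about as many as arbitrary values would give. It is thus no check of their lengths or reads. Intervals cover counting error only. No low values were filtered in the main fit. Genes named are the 6 members, *Axl*, *C1qa*, the 3 genes nearest to each member among genes with a mean of at least 1 FPKM, and listed genes held by the table. The members and lists were chosen with earlier results of these data known. Alternatives were constants of 1 and 0.1, a fit without the sex term, a filter at a mean of 1 FPKM, limma's intensity trend, other thresholds, either sex alone, permutation within sex, and leaving out each mouse. The spread without AMDKO_264, unadjusted interaction p with a mouse left out, and macrophage markers without *C1qa* and *Axl* were chosen after seeing the data. One gene that met the rule for named genes is not reported here.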

Additional observations from a re-analysis of the deposited data

Results flagged for a closer look

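Dixon's ratio, the gap of the most distant mouse divided by the range of its group, was above the 95% limit for 6 values in 4 of 54 groups tested, where chance flags about 1 in 20. Male WT_212 was the distant mouse for *Vcam1* in WT (66.6 FPKM, ratio 0.696) and for *Trf* in WT (21.4 FPKM, ratio 0.661). Male AMDKO_264 was the distant mouse for *Itgad* in mutants (0.360 FPKM, ratio 0.658). Male WT_211 was the distant mouse for the log2 ratio of *Spic* to *Slc40a1* in WT (ratio 0.704). For *Vcam1* without mouse WT_212 the log2(FPKM + 5) difference was -0.57, for *Trf* without it -0.36, and for *Itgad* without mouse AMDKO_264 -0.40, each with an adjusted p under 0.05 in limma.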

How the results depend on the processing

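Leaving out each mouse in turn kept the limma difference of each of the 6 genes lower with an adjusted p under 0.05, and so did every other setting run, except *Slc40a1* with males alone (-0.36, adjusted p = 0.130). *Cd163* has a mean below 1 FPKM and gave no value under the minimum of 1 FPKM. The number called lower past both thresholds, 1 as reported, was 6 with log2(FPKM + 1), 6 with log2(FPKM + 0.1), 6 with no threshold on the log2 difference, 0 with a threshold of 1, 2 with males alone, and 1 to 2 with a mouse left out. Of the 13 unequal pairs, 7 kept call and direction with FPKM + 1. With FPKM + 5, 6 pairs were called, of which 2 kept call and direction, 3 were called in the other direction (*Spic* with *Cd163*, *Cd163* with *Vcam1*, *Vcam1* with *Itgad*) and 1 was not called before (*Slc40a1* over *Vcam1*, 0.26, adjusted p = 0.0260). With a mouse left out 10 to 12 were called, while the 3 members that fell unequally to *C1qa* became 1 with FPKM + 1 and 0 with FPKM + 5, and 2 to 4 with a mouse left out. Constants pull low genes towards no change by construction. With FPKM + 1 the ratio turned round for *Spic* over *Cd163* (-0.35), *Cd163* over *Vcam1* (0.13) and *Trf* over *C1qa* (0.0020). With FPKM + 5 it turned round for *Spic* over *Cd163* (-0.33), *Vcam1* (0.16) and *Itgad* (-0.080), *Slc40a1* over *Cd163* (-0.23) and *Trf* (0.022), *Cd163* over *Vcam1* (0.48) and *Trf* (0.25), *Vcam1* over *Itgad* (-0.24), *Itgad* over *Trf* (0.00031), and over *C1qa* for *Spic* (0.0040), *Slc40a1* (0.11), *Cd163* (0.33), *Itgad* (0.084) and *Trf* (0.083). Leaving out a mouse moved across 0 the ratios of *Slc40a1* over *Trf* (-0.16 to 0.045), *Vcam1* (-0.015 to 0.17) and *C1qa* (-0.22 to 0.030) and of *Trf* over *C1qa* (-0.057 to 0.021), none of which was called. The median r in WT, 0.800, was 0.657 with Spearman's rho, 0.539 with values centred on each sex, and 0.487 to 0.858 with a mouse left out. That in mutants, 0.595, was 0.509 with values centred on each sex and 0.384 to 0.745 with a mouse left out. The count of members with an interaction of sex and genotype after adjustment was 0 throughout. No paired analysis was possible because the genotypes share no mouse numbers. Depth limits *Cd163* and *Itgad* in mutants most, with 4 to 16 and 10 to 30 reads per mouse.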
